A study of Mus musculus with 10 samples.

Results

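The 10 genes described here encode the IL-36 cytokines and their closest relatives in the IL-1 family. They are the 3 IL-36 agonists Il1f6 (IL-36 alpha, now named Il36a), Il1f8 (IL-36 beta, Il36b) and Il1f9 (IL-36 gamma, Il36g), the IL-36 receptor antagonist Il1f5 (Il36rn), the IL-36 receptor Il1rl2, the IL-1 agonists Il1a and Il1b, the IL-1 receptor antagonist Il1rn, and the agonists Il18 and Il33. They were taken by symbol from a table of 55487 mouse genes, and all 10 were found and tested. The libraries came from mouse skin, 5 from animals whose genotype is written Hamp1-KI ker (KI) and 5 from wild type animals (WT), and the study concerns skin that overexpresses hepcidin, the hormone encoded by Hamp. The labels used here do not say what "ker" stands for, which promoter or Cre line was used, or the strain, age and sex of the mice. Sample titles begin with EAS37 (KI 1 and KI 2, WT 1 to WT 3) or EAS42 (KI 3 to KI 5, WT 4 and WT 5), and the labels do not say what that prefix means.

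IL-36 agonists bind the receptor chain Il1rl2, which recruits the shared chain Il1rap and signals through Myd88 and IRAK kinases to NF-kB. The antagonist Il1f5 occupies the same receptor without recruiting Il1rap, and in humans loss of its counterpart causes generalized pustular psoriasis. In skin, keratinocytes are a main source of IL-36 cytokines and of IL-1 alpha, while IL-1 beta is made mostly by myeloid cells and, like IL-18, is made as an inactive precursor that caspase-1 cleaves.

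Depth ran from 18.96 to 26.43 M expected counts per library. Hamp, the gene named in the genotype, lay between 85.6 and 168.9 CPM (counts scaled to a common library total) in KI skin and between 1.86 and 3.33 CPM in WT skin, so the labels and the Hamp level match in all 10 libraries. Keratinocyte markers were abundant in every library, at 20130 to 33000 CPM summed over 12 genes in KI skin and 20140 to 22420 CPM in WT skin. Skeletal muscle was also captured, and the mean log2 CPM of 20 muscle genes was 6.95 to 10.20 in KI libraries and 10.16 to 10.80 in WT libraries. In RNA from whole skin, fewer cells of a type and less RNA per cell cannot be told apart.

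On GRCm38 (GENCODE M21), 5 of the 10 genes lie on the plus strand of chromosome 2 within 198.3 kb. In order along the chromosome these are Il1f8 (ENSMUSG00000026985, chr2:24153161-24160519), Il1f9 (ENSMUSG00000044103, chr2:24186476-24193568), Il1f6 (ENSMUSG00000026984, chr2:24215418-24225702), Il1f5 (ENSMUSG00000026983, chr2:24276954-24283426) and Il1rn (ENSMUSG00000026981, chr2:24336853-24351494). Il1a (ENSMUSG00000027399, chr2:129299610-129309972) and Il1b (ENSMUSG00000027398, chr2:129364570-129371139) lie on the minus strand of the same chromosome within 71.5 kb. The other 3 are on the plus strands of other chromosomes: Il1rl2 (ENSMUSG00000070942, chr1:40324610-40367562), Il18 (ENSMUSG00000039217, chr9:50554827-50581840) and Il33 (ENSMUSG00000024810, chr19:29925114-29960718). All are protein-coding, and each value below is for a whole gene.

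RefSeq promoter windows on GRCm38.p6, reaching from 250 bases before to 50 bases after an annotated start, were matched by symbol for 9 of the 10 genes (13 windows). Both strands were searched for an AP-1 site (TGANTCA), 2 forms of an NF-kB site (GGGANTTTC and GGGANTTCC) and a STAT site (TTCNNNGAA), where N is any base. The 4 windows shown are those of a pair of neighbouring IL-36 agonists that were both higher in KI skin, and of the IL-1 agonist Il1a and the IL-1 antagonist Il1rn, of which the first was called and the second was not. Capitals mark the motif match, and each sequence runs 5′ to 3′ on the strand of the gene.
Il1f8, chr2:24152922-24153221, plus strand: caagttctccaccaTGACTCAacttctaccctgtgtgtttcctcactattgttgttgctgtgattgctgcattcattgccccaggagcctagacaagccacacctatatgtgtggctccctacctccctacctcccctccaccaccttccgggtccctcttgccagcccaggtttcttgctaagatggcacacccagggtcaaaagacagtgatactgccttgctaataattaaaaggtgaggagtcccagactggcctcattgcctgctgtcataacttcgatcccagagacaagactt
Il1f9, chr2:24186226-24186525, plus strand: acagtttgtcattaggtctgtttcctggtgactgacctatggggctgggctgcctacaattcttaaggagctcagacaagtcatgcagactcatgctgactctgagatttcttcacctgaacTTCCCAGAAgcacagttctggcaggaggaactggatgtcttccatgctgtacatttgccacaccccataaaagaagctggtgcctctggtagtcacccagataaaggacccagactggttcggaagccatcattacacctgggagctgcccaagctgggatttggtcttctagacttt
Il1a, chr2:129309923-129310222, minus strand: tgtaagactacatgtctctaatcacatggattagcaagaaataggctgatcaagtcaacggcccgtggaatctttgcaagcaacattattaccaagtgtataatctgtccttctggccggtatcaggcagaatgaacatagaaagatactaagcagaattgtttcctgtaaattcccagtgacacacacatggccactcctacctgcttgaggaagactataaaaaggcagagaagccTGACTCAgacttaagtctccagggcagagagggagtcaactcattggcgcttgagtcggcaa
Il1rn, first window, chr2:24336610-24336909, plus strand: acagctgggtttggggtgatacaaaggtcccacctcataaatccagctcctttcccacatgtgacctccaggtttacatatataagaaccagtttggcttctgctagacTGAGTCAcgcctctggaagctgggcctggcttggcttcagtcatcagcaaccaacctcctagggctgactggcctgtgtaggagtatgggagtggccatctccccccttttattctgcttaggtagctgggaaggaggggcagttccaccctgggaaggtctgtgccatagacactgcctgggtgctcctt

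The capitals are an AP-1 match in Il1f8 (first base at -236 relative to the start), Il1a (-12) and Il1rn (-141), and a STAT match in Il1f9 (-128). A second window of Il1f5 also held a STAT match, at -98. Among 32851 windows of the same length, 7.81% held the AP-1 letters and 8.3% the STAT letters. The NF-kB letters were in 1.11% and 1.68% of all windows and in none of the windows of these 9 genes. A match is a string of letters and not a measured binding site.

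Of the 10 genes, 8 were higher in KI than in WT skin, Il33 was lower and Il1rn was not called (edgeR quasi-likelihood test, Benjamini-Hochberg adjusted p under 0.05 over all 17321 genes tested). The background of the comparison is broad: 30.9% of all genes tested were called, made up of 15.6% of genes tested that were higher and 15.3% that were lower. The 2 groups did not overlap for 8 of the 10 genes, against 20.3% of genes tested. In all 8 every KI library was above every WT library (10.7% of genes tested), and in 0 of the 10 was every KI library below (9.65%). The median log2 fold change of the 10 genes was 1.28, against -0.01 for all genes. Il1f6 and Il1b passed the filter on low counts only through the KI libraries. Of the 8 genes above the filter in both groups, 6 were higher.

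**Figure D1:**
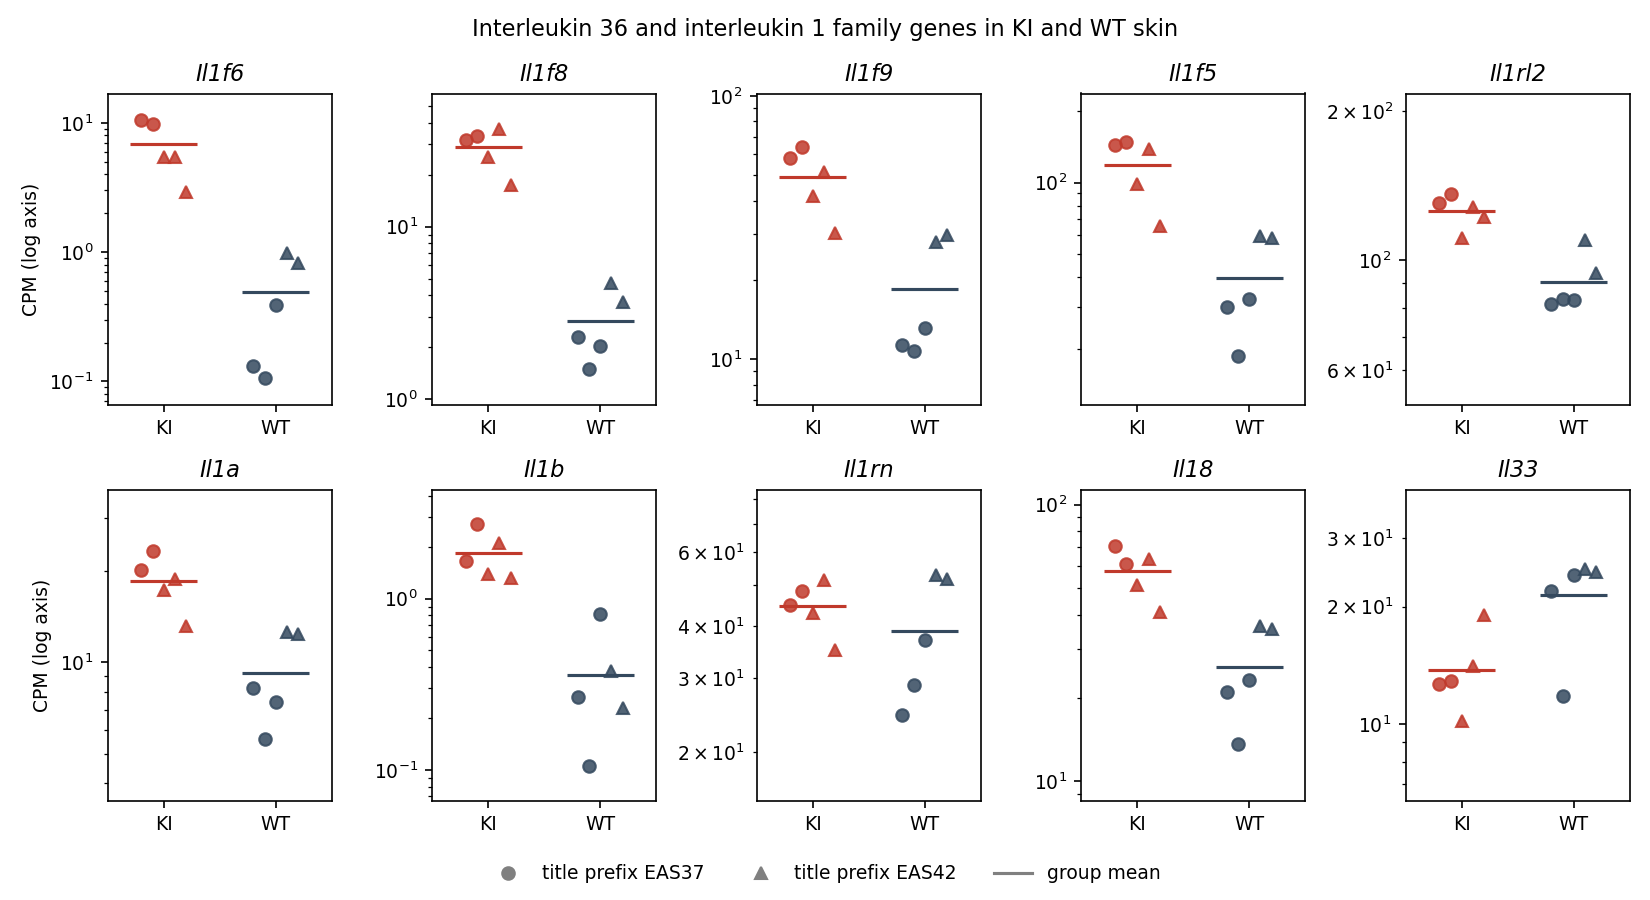
CPM of each of the 10 genes in every library on a log axis, KI left of WT, with points marked by title prefix and the group mean as a line. KI and WT points are separated for 8 genes and overlap for Il1rn and Il33.

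All 3 IL-36 agonists rose, and the fold changes of Il1f6 and Il1f8 were the highest of the 10 genes. Il1f6 stood at 10.55, 9.76, 5.49, 5.42 and 2.94 CPM in KI 1 to KI 5, against 0.132, 0.106, 0.389, 0.986 and 0.825 CPM in WT 1 to WT 5. The lowest KI library was thus still above the highest WT library, and within KI skin the EAS37 libraries were the high ones while within WT skin they were the low ones. Il1f6 was 13.57-fold higher, a log2 fold change of 3.76 ± 0.57 (SE; adjusted p by edgeR = 0.00176), on 726 counts over the KI libraries and 59 over the WT libraries.

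Il1f8 had 31.94, 33.79, 25.20, 37.03 and 17.33 CPM in KI 1 to KI 5, against 2.30, 1.48, 2.02, 4.74 and 3.67 CPM in WT 1 to WT 5. The groups were far apart, KI 5 being the lowest KI library and WT 4 the highest WT library. Il1f8 rose 10.16-fold, with a log2 fold change of 3.34 ± 0.33 (SE; adjusted p by edgeR = 0.000243), rank 65 of all genes by p.

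Il1f9, the agonist with the highest level in WT skin, changed less. Its values were 58.09, 63.82, 41.81, 51.34 and 30.05 CPM in KI 1 to KI 5 and 11.30, 10.74, 13.07, 27.79 and 29.62 CPM in WT 1 to WT 5. KI 5 and WT 5 almost touched, and both high WT libraries carry the EAS42 prefix. The fold was 2.65 (log2 1.40 ± 0.34, SE; adjusted p by edgeR = 0.0131).

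Il1f5, the antagonist of the same receptor, rose as well. It reached 144.1, 148.0, 98.97, 138.2 and 65.42 CPM in KI 1 to KI 5, against 29.88, 18.63, 32.41, 59.49 and 58.70 CPM in WT 1 to WT 5. As with Il1f9, the lowest KI library was KI 5 and the highest WT libraries were WT 4 and WT 5, and the groups did not overlap. Its log2 fold change was 1.58 ± 0.34 (SE; adjusted p by edgeR = 0.00865), or 2.99-fold.

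Il1rl2, the receptor chain, changed little but tightly. KI 1 to KI 5 had 130.4, 135.8, 110.7, 128.1 and 122.3 CPM, and WT 1 to WT 5 had 81.60, 83.24, 82.99, 110.0 and 94.10 CPM. The lowest KI value was just above the highest WT value. Il1rl2 was 1.39-fold higher (log2 0.47 ± 0.10, SE; adjusted p by edgeR = 0.00538). Its shared partner chain Il1rap averaged 37.3 ± 4.84 CPM in KI and 23.3 ± 3.65 CPM in WT skin (SD, n = 5 each), a log2 fold change of 0.67 ± 0.12 (SE; adjusted p by edgeR = 0.00358). Il1rl2 overlaps the gene Gm17970 on the same strand, which held 119 counts over the KI libraries and 77 over the WT libraries.

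**Figure D2:**
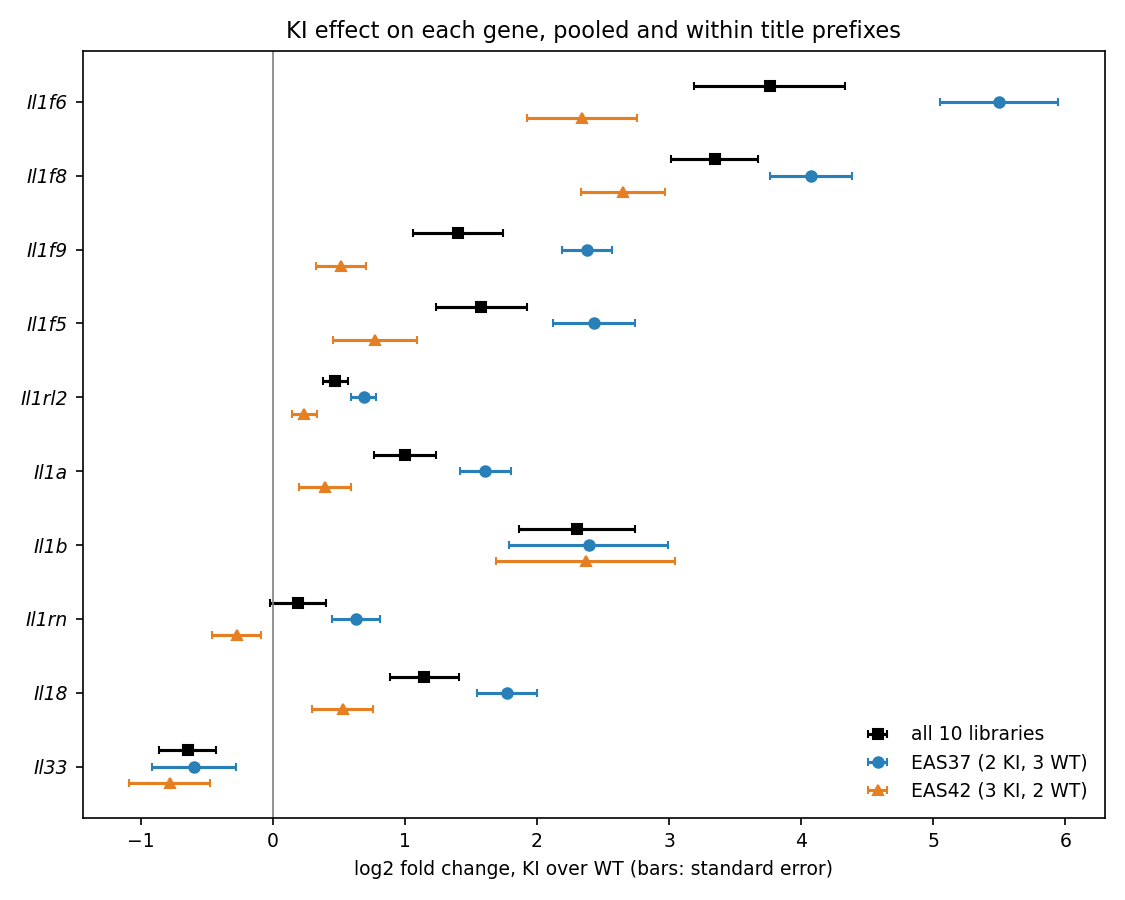
Log2 fold change, KI over WT, of the 10 genes with its standard error, from all libraries and within each title prefix. The IL-36 agonists Il1f6 and Il1f8 lie furthest to the right, Il33 lies left of 0, and for most genes the EAS42 value is nearer 0 than the EAS37 value.

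Of the IL-1 agonists, Il1a rose 2.0-fold, and Il1b, very low in WT skin, rose 4.94-fold. Il1a stood at 20.14, 23.22, 17.35, 18.83 and 13.18 CPM in KI 1 to KI 5, against 8.25, 5.61, 7.39, 12.59 and 12.43 CPM in WT 1 to WT 5. KI 5 was only just above WT 4. The log2 fold change of Il1a was 1.0 ± 0.23 (SE; adjusted p by edgeR = 0.00977).

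Il1b had 1.67, 2.71, 1.40, 2.12 and 1.32 CPM in KI 1 to KI 5, against 0.265, 0.106, 0.817, 0.379 and 0.229 CPM in WT 1 to WT 5. The groups did not overlap, although all values were low, with 198 counts in total in KI skin and 44 in WT skin. Il1b was 4.94-fold higher (log2 2.30 ± 0.44, SE; adjusted p by edgeR = 0.00435). The antisense gene Il1bos overlaps it and held 333 counts in KI and 141 in WT libraries. No source used here gives the strand setting of the counting, so the division of reads between them is uncertain. Il1a likewise overlaps the antisense gene Gm14023 (114 counts in KI, 110 in WT).

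Il1rn, which blocks the IL-1 receptor, was the 1 gene with no call. It had 44.81, 48.49, 42.90, 51.51 and 35.07 CPM in KI 1 to KI 5 and 24.54, 28.95, 37, 52.81 and 51.59 CPM in WT 1 to WT 5. The groups overlapped, with the EAS42 WT libraries as high as any KI library. The log2 difference was 0.19 ± 0.21 (SE; adjusted p by edgeR = 0.513).

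Il1r2, the decoy receptor that binds IL-1 without signalling, fell. It averaged 26.5 ± 8.84 CPM in KI and 43.2 ± 7.28 CPM in WT skin (SD, n = 5 each), with a log2 fold change of -0.70 ± 0.21 (SE; adjusted p by edgeR = 0.0267), although KI 5 at 41.05 CPM lay within the WT range. The signalling receptor Il1r1 averaged 56.4 CPM in KI and 54.6 CPM in WT skin (adjusted p = 0.789).

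Il18 rose, and so did both chains of its receptor. Il18 stood at 70.90, 61.20, 51.10, 63.66 and 40.90 CPM in KI 1 to KI 5, against 20.96, 13.60, 23.19, 36.40 and 35.59 CPM in WT 1 to WT 5. KI 5 was again the lowest KI library, and WT 4 and WT 5 the highest WT libraries. The fold was 2.22 (log2 1.15 ± 0.26, SE; adjusted p by edgeR = 0.00986). Il18 overlaps Bco2 on the other strand, which held 240 counts in KI and 153 in WT libraries, and Tex12, which held 0 and 1.

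Il18r1, the ligand-binding chain, averaged 10.9 ± 1.28 CPM in KI and 2.504 ± 0.945 CPM in WT skin (SD, n = 5 each), a log2 fold change of 2.12 ± 0.25 (SE; adjusted p by edgeR = 0.00043). Il18rap, the accessory chain, averaged 3.50 ± 0.63 CPM in KI and 0.599 ± 0.24 CPM in WT skin, with a log2 fold change of 2.52 ± 0.28 (SE; adjusted p by edgeR = 4e-04). Like Il1f6 and Il1b, Il18rap was below the filter level in some WT libraries (0.318 CPM in WT 2 and 0.413 CPM in WT 5). It passed the filter through the KI libraries. Both receptor chains are best known on T and NK cells. Il18bp, a secreted inhibitor of IL-18, averaged 3.76 CPM in KI and 3.72 CPM in WT skin (adjusted p = 0.959). T and NK cell markers were higher in the same libraries: 9 of 13 tested (18 listed) rose, 6 of them among the 9 above the filter in all 10 libraries, and their median log2 fold change was 1.25 and their sum was 78.35 to 94.98 CPM in KI and 29.69 to 50.26 CPM in WT skin. Their part in the receptor values was not tested.

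Il33, an alarmin stored in the nucleus of epithelial, endothelial and stromal cells, was the 1 gene that fell. It had 12.67, 12.85, 10.16, 14.05 and 19.05 CPM in KI 1 to KI 5, against 21.89, 11.80, 24.12, 24.98 and 24.49 CPM in WT 1 to WT 5. The groups overlapped through WT 2, which lay below 4 of the 5 KI libraries. The log2 fold change was -0.64 ± 0.22 (SE; adjusted p by edgeR = 0.0441), and the call was lost in 16 of 26 alternative fits. Its receptor Il1rl1 had a log2 difference of 0.19 (adjusted p = 0.594). Of 12 endothelial markers 9 were also lower in KI skin and none higher (median log2 fold change -0.64). Their sums were 215.4 to 291.1 CPM in KI and 329.3 to 452.2 CPM in WT skin. This is a shared direction between groups, and endothelial markers differed in WT 2, the lowest WT library for Il33. Among WT libraries, WT 2 was the highest in Pecam1 (84.94 CPM) and the lowest in Egfl7 (30.91 CPM). It was also the lowest WT library in most fibroblast markers, such as Col1a1 (2152 CPM), but not in Pdgfrb (60.49 CPM). Fibroblast markers gave 4 lower, 1 higher and 5 not called of 10 (median -0.66; 3 called without WT 1 or WT 3), with sums of 4500 to 8816 CPM in KI and 8312 to 17830 CPM in WT skin, and the part of either list in Il33 was not tested.

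Within title prefixes the picture was uneven. In EAS37 (2 KI and 3 WT libraries) the log2 fold changes were 5.50 for Il1f6, 4.07 for Il1f8, 2.38 for Il1f9, 2.43 for Il1f5, 0.69 for Il1rl2, 1.61 for Il1a, 2.39 for Il1b and 1.78 for Il18, all past the threshold. In EAS42 (3 KI and 2 WT libraries) they were 2.34 for Il1f6 (adjusted p = 0.00733), 2.65 for Il1f8 (0.00164) and 2.37 for Il1b (0.0418), which passed. The EAS42 values of the other 5 were 0.52 for Il1f9, 0.77 for Il1f5, 0.24 for Il1rl2, 0.40 for Il1a and 0.53 for Il18, with adjusted p between 0.0957 and 0.197. Il33 had -0.60 in EAS37 (adjusted p = 0.173) and -0.78 in EAS42 (adjusted p = 0.12). These come from 1 model of all 10 libraries with genotype and prefix together. The share of all genes called within each prefix in that model is not given, so these calls have no background beside them.

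The difference of the KI effect between prefixes, EAS42 minus EAS37, was called for 2 of the 10 genes, against 0.866% of all genes. It was -3.16 ± 0.61 for Il1f6 (SE; adjusted p by edgeR = 0.0486) and -1.86 ± 0.26 for Il1f9 (adjusted p = 0.0255) on the log2 scale. Leaving out any 1 of KI 1 to KI 3, WT 1, WT 4 and WT 5 ended both calls (adjusted p 0.0606 to 0.208), and leaving out KI 4 or KI 5 ended that of Il1f6 (0.0522 and 0.0609). For Il1b it was -0.02 ± 1.20 (SE; adjusted p = 0.995), too imprecise to show that the folds were alike, and it was -1.14 without WT 3. Between WT libraries alone, EAS42 exceeded EAS37 by log2 1.29 ± 0.19 for Il1f9 (adjusted p = 0.00952) and 0.79 ± 0.18 for Il1rn (adjusted p = 0.0493), where 3.06% of all genes were called. Between KI libraries alone none of the 10 was called by edgeR, against 0.699% of all genes. At an unadjusted p under 0.05 there were 2 of the 10, and 3891 of the 17321 genes tested. Il1rn was higher in KI than WT skin in EAS37, at log2 0.63 ± 0.18 (adjusted p = 0.0239), and had -0.27 ± 0.18 in EAS42 (adjusted p = 0.342).
Keratinocyte level moved with these WT values: the mean log2 CPM of the keratinocyte markers was 9.78 to 10.16 in KI libraries, 9.61 and 9.71 in the EAS42 WT libraries and 9.10 to 9.47 in the EAS37 WT libraries. With that level in the model, a choice made after seeing the data, Il1f8 stayed called at log2 2.12 (adjusted p = 0.00883) and none of the other 9 genes was called, with Il1f6 at 1.71, Il1f9 at 0.13 and Il1f5 at 0.17. Calls over the whole table also fell sharply with the keratinocyte level in the model, and the last section gives their number. The KI and WT libraries do not overlap in this level, so genotype and keratinocyte level cannot be told apart. The level is a mean over 12 markers, of which 5 rose, 1 fell and 6 were not called. Flg, for one, had a log2 fold change of 3.26 and Krt5 one of -0.04, and the summed CPM of the markers overlapped between groups. It therefore holds genes that differ by genotype and is not a measure of keratinocyte number.

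Levels between genes were compared in TPM, a unit that allows for gene length. In KI skin the order was Il18 (122.1 ± 18.0 TPM), Il1f5 (84.6 ± 24.8), Il1rl2 (46.0 ± 4.53), Il1f9 (42.5 ± 10.3), Il1f8 (35.6 ± 9.59), Il1rn (27.9 ± 4.19), Il1f6 (13.5 ± 5.78), Il1a (13.2 ± 2.37), Il33 (7.56 ± 2.12) and Il1b (2.26 ± 0.817) (SD, n = 5). Neighbours in that order had overlapping ranges except Il1rn over Il1f6 and Il33 over Il1b. In WT skin it was Il18 (57.95 ± 20.8 TPM), Il1rl2 (35.3 ± 4.49), Il1f5 (28.8 ± 12.3), Il1rn (25.8 ± 8.0), Il1f9 (17.0 ± 8.35), Il33 (12.5 ± 3.25), Il1a (7.01 ± 2.26), Il1f8 (3.70 ± 1.67), Il1f6 (1.10 ± 0.892) and Il1b (0.500 ± 0.334), with every pair of neighbours overlapping. Il1f8 was thus the fifth gene of the 10 in KI skin and the eighth in WT skin.

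The make-up of the IL-36 agonist pool differed between genotypes. The summed TPM of Il1f6, Il1f8 and Il1f9 was 91.6 ± 23.5 in KI and 21.8 ± 10.8 in WT skin (SD, n = 5 each). Il1f9 supplied 46.6% ± 1.55 of that sum in KI and 78.3% ± 2.81 in WT skin. Il1f8 supplied 39.0% ± 4.07 in KI and 17.4% ± 2.85 in WT skin, and Il1f6 14.4% ± 3.65 in KI and 4.36% ± 1.95 in WT skin. None of these shares overlapped between groups.

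Relative to the summed agonist transcripts, antagonist transcripts were scarcer in KI skin. Neither antagonist was itself lower: Il1f5 rose 2.99-fold and Il1rn was not called. Beside Il1f9 alone, mean Il1f5 was 84.6 to 42.5 TPM in KI and 28.8 to 17.0 TPM in WT skin, which is not scarcer in KI skin. Il1f5 divided by the agonist sum was 0.821 to 0.988 in KI and 1.08 to 1.68 in WT libraries. Il1rn divided by Il1a plus Il1b was 1.47 to 2.07 in KI and 2.42 to 4.22 in WT libraries. Every KI library was below every WT library in both ratios, which are given without a test. The ratio of the decoy Il1r2 to Il1r1 was 2.05 ± 0.755 in KI and 3.34 ± 0.82 in WT skin (SD, n = 5 each) and overlapped.

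**Figure D3:**
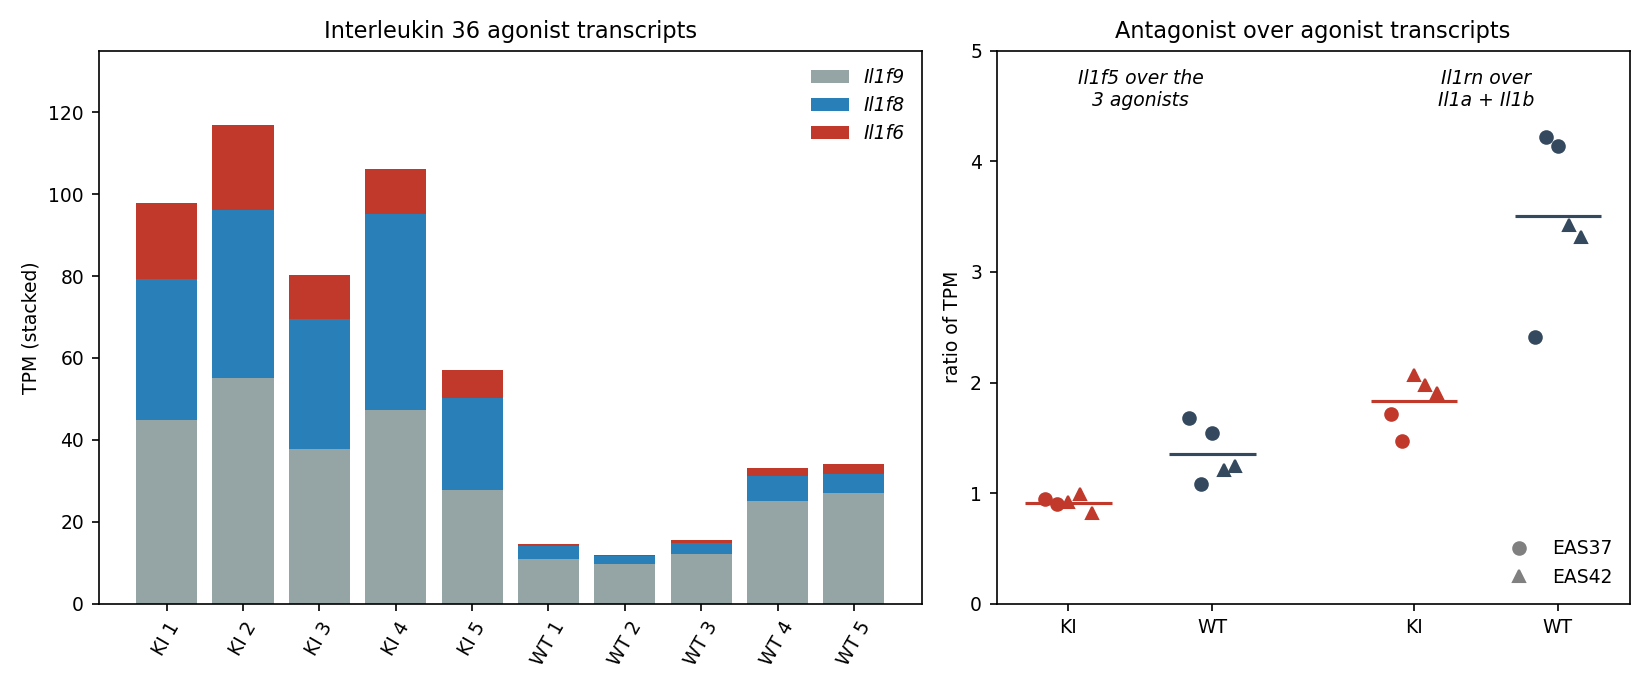
Left, stacked TPM of Il1f9, Il1f8 and Il1f6 in each library; right, the ratio of antagonist to agonist TPM per library with the group mean as a line, KI left of WT. Both antagonist ratios are lower in every KI library, and Il1f9 makes up 44.45% to 48.56% of the sum in KI libraries and 75.28% to 82.28% in WT libraries.

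Genes of the pathway were counted from lists, in the same fit. Of all genes tested there, 30.9% were called, 15.6% higher and 15.3% lower. Of 11 receptors and inhibitors, 9 were tested, and among the 7 above the filter in all 10 libraries 2 rose and 1 fell. Of the 9, Il1rap, Il18r1 and Il18rap rose, Il1r2 fell and 5 were not called (median log2 fold change 0.11). Among these 5, the inhibitory receptor Sigirr had a log2 difference of 0.11 (adjusted p = 0.654) and the family cytokine Il1f10 one of -0.69 (adjusted p = 0.249). Of 19 adaptors and kinases, 4 rose, 1 fell and 14 were not called, and their median log2 fold change was 0.06. The 5 called of these 19 are no larger a share than over all genes tested. The adaptor Myd88 rose by log2 0.57 ± 0.12 (SE; adjusted p by edgeR = 0.00557), the kinase Irak4 by 0.46 (adjusted p = 0.0214) and Irak3, a brake on the pathway, by 0.57 (adjusted p = 0.0081). Peli2, a ubiquitin ligase, was lower at -0.90 ± 0.22 (adjusted p = 0.0121).

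Of 15 NF-kB factors and regulators, 9 rose, 1 fell and 5 were not called (median log2 fold change 0.29). Nfkbiz, the atypical nuclear IkB that drives many IL-36 and IL-17 responses in keratinocytes, averaged 69.7 ± 4.80 CPM in KI and 36.4 ± 3.397 CPM in WT skin (SD, n = 5 each), a log2 fold change of 0.94 ± 0.08 (SE; adjusted p by edgeR = 8e-05). Bcl3, another nuclear IkB, averaged 19.96 ± 6.22 CPM in KI and 3.97 ± 1.08 CPM in WT skin (log2 2.32 ± 0.26, adjusted p = 4e-04). Nfkbid and Zc3h12a, an RNase that limits cytokine transcripts, rose by log2 1.10 and 0.93. Nfkbia, the classical inhibitor of NF-kB, was the 1 that fell, with 85.3 ± 10.2 CPM in KI and 122.6 ± 23.1 CPM in WT skin (log2 -0.52 ± 0.13, adjusted p = 0.0133).

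Of 20 genes for processing and inflammasomes, 17 were tested, of which 8 rose, 1 fell and 8 were not called (median 0.54). Among the 14 above the filter in all 10 libraries, 6 rose and 1 fell. Ctss, encoding cathepsin S, which cleaves human IL-36 gamma to its active form, averaged 55.5 ± 13.9 CPM in KI and 19.2 ± 4.76 CPM in WT skin (SD, n = 5 each), a log2 fold change of 1.53 ± 0.20 (SE; adjusted p by edgeR = 0.00086). Casp1, the protease that matures IL-1 beta and IL-18, averaged 24.5 ± 2.797 CPM in KI and 11.3 ± 5.69 CPM in WT skin (log2 1.13 ± 0.29, adjusted p = 0.0165). Casp4 and Casp8 rose by log2 1.16 and 0.72, and the inflammasome adaptor Pycard by 0.69. The sensors Mefv, Nlrp3 and Nlrc4 rose by 1.85, 1.75 and 0.88 from low levels. Mefv and Nlrp3 were below the filter level in some WT libraries, at 0.106 and 0.0529 CPM in the lowest. The other sensors tested were not called, and their differences went in both directions. Capn1, a calpain of the family that processes IL-1 alpha, fell by 0.30 on the log2 scale, and Gsdmd, the pore through which IL-1 beta leaves cells, had a difference of -0.01 (adjusted p = 0.956).
Elane and Ctsg, neutrophil proteases that can also process IL-36 cytokines, had 3 and 9 counts over the KI libraries and 3 and 15 over the WT libraries.

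Of 28 genes induced by IL-36 or IL-1 in skin, 14 passed the filter, of which 10 rose, none fell and 4 were not called (median log2 fold change 2.91). The count and median include genes that passed only through the KI libraries, and among the 6 above the filter in all 10 libraries, 3 rose. Ccl20, a chemokine for Ccr6-bearing cells, averaged 6.42 ± 2.004 CPM in KI and 0.365 ± 0.268 CPM in WT skin (SD, n = 5 each), a log2 fold change of 4.09 ± 0.52 (SE; adjusted p by edgeR = 0.000667). S100a8, an alarmin subunit, averaged 30.6 ± 18.7 CPM in KI and 1.40 ± 0.715 CPM in WT skin (log2 4.46 ± 0.51, adjusted p = 0.000532). Il23a, a subunit of IL-23, averaged 1.32 ± 0.366 CPM in KI and 0.189 ± 0.089 CPM in WT skin (log2 2.8 ± 0.37, adjusted p = 0.000791). Ccl20 and Il23a are among the genes that passed the filter only through the KI libraries, with 44 and 21 counts over the WT libraries. The adhesion molecule Icam1 averaged 32.9 ± 3.71 CPM in KI and 20.01 ± 1.92 CPM in WT skin (log2 0.72 ± 0.10, adjusted p = 0.000994). Ptgs2, Nos2, Vcam1 and Tslp were the 4 not called.

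**Figure D4:**
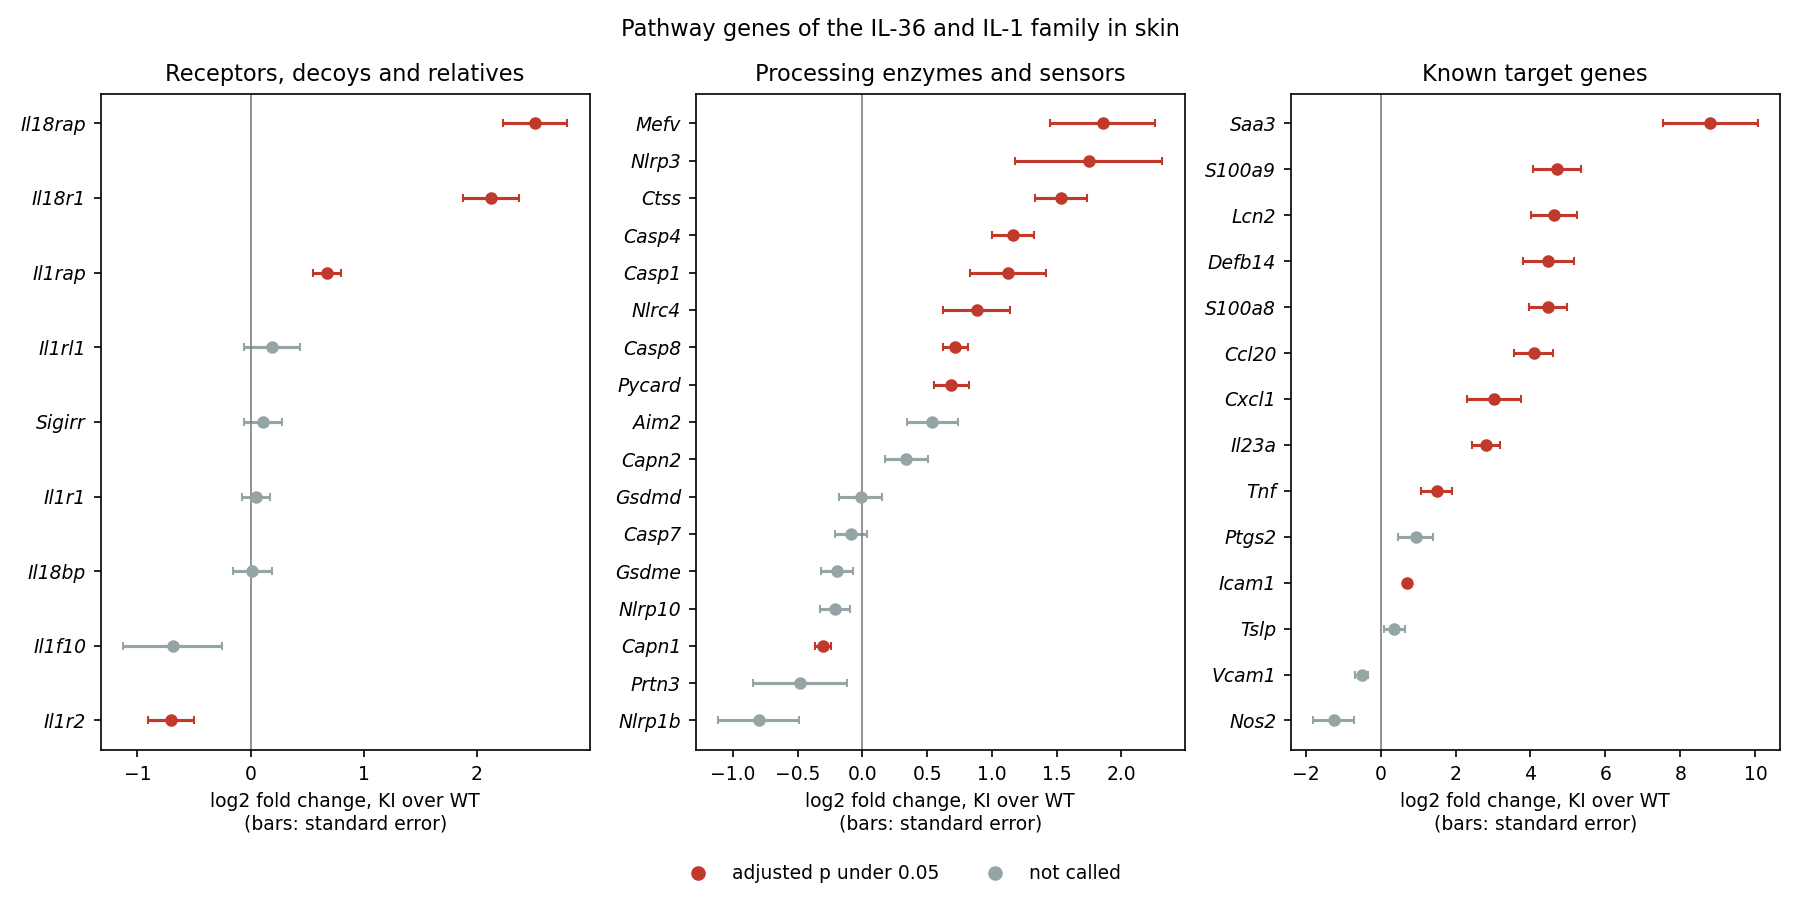
Log2 fold change, KI over WT, with standard errors as bars, in 3 panels for the tested receptors and relatives, processing genes and target genes. Red marks an edgeR adjusted p under 0.05, the axes differ between panels, and Il18r1 and Il18rap lie furthest to the right among the receptors.

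Markers of other cells in skin were counted in the same fit, where 15.6% of all genes tested were higher and 15.3% lower. Of 18 neutrophil markers 5 were tested and 3 rose, but only 3 were above the filter in all 10 libraries and 1 of these rose. The count was 5 without KI 5, WT 2 or WT 3. The sum of the neutrophil markers was 66.8 to 108.3 CPM in KI and 14.8 to 24.4 CPM in WT skin, while Ly6g had 0 counts. The highest of them in KI skin was Mmp9, a protease that other cells also make, with a mean of 55.4 CPM in KI and 5.88 CPM in WT skin. Cxcr2 and Csf3r were also called, at log2 5.29 (adjusted p by edgeR = 0.0013) and 2.38 (adjusted p by edgeR = 0.0065). Both were below the filter level in some WT libraries. Of 21 macrophage and dendritic cell markers 8 rose, 1 fell and 12 were not called (median 0.56), with sums of 1084 to 1512 CPM in KI and 731.9 to 952.6 CPM in WT skin. With the neutrophil level in the model, a choice made after seeing the data, Il1b had a log2 difference of -0.11 (adjusted p = 0.985) and none of the 10 genes was called by edgeR, while 2 genes were called in the whole table. At an unadjusted p under 0.05 there were 1 of the 10, and 1353 of the 17321 genes tested. Neutrophil levels, at log2 2.46 to 3.81 in KI and 0.274 to 1.33 in WT libraries, do not overlap between genotypes. This level averages only the 5 markers tested, Mmp9 among them, and is not a measure of neutrophil number. Of the 13 below the filter, Mpo, Camp and Ltf had 1, 7 and 9 counts over the KI libraries and 0, 21 and 8 over the WT libraries. Clec4d had 142 and 16, Fpr2 48 and 12, Stfa2l1 40 and 1, Fpr1 32 and 5, and Mmp8 30 and 3.

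Of 12 keratinocyte markers 5 rose, 1 fell and 6 were not called (median log2 fold change 0.26). Of 10 markers of activated keratinocytes 7 rose and 3 were not called, but 6 were above the filter in all 10 libraries and 3 of these rose. The activated keratinocyte markers had sums of 4953 to 17660 CPM in KI and 1037 to 4592 CPM in WT skin. None of the 7 mast cell markers tested (9 listed, median 0.21) was called by edgeR without covariates, by DESeq2 or by limma, and 0 had an unadjusted p under 0.05 by edgeR. With the adipocyte level as a covariate 1 was called. Of 12 adipocyte markers 7 fell and none rose (median -0.99), and of 20 skeletal muscle markers 4 fell and none rose (median -1.31). The muscle count was unstable, with 16 called by DESeq2, 10 by limma-voom and 15 with the prefix as a covariate. It was 18 without KI 3, 9 without KI 2, 1 without KI 5, WT 1 or WT 3, and 0 without KI 1, KI 4, WT 2, WT 4 or WT 5. The part of these lists in the values of the 10 genes was not tested beyond the fits named.

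The genes with the profile nearest to a member were found by the root mean square difference of log2 CPM over the 10 libraries, each gene centred on its WT mean, among 15664 genes. For Il1f8 these were Flg (0.165), the gene of filaggrin, Casp14 (0.3), a caspase of cornification, and Lce1j (0.31). For Il1f6 they were Rbp2 (0.523), Lce1e (0.543) and Flg (0.555), a looser likeness. Il1f9 was nearest to Rgn (0.14) and to the mitotic genes Bub1 (0.181) and Cenpe (0.235). Among the 3 nearest to Il1b were Il18rap (0.417) and Bcl3 (0.437). Lce genes are near-identical neighbours, so the division of reads among them is uncertain.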

How the data were processed

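Skin RNA of 10 mice, 250 ng each, went into stranded Illumina mRNA libraries, per the labels' protocols. Tools listed in the submitters' processing notes, without role or order, are STAR 2.5.2b, DESeq2 1.14.1, Picard 2.8.1, FastQC and featureCounts, with the build GRCm38. The deposited tables have the columns of RSEM gene tables. Expected counts and TPM come from the authors, as the file headers show. No source used here gives the RSEM version, the annotation or the strand setting. Other deposited columns were not used. Gene names came from GENCODE M21, which matched 55227 of 55487 identifiers.

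The deposited expected counts (10.4% to 12.16% of values fractional) were rounded to whole numbers. Genes were filtered by filterByExpr (minimum count 10, minimum total 15, about 0.454 CPM), scaled by TMM and tested in edgeR 4.0.16 under R 4.3.3 (quasi-likelihood, robust), with Benjamini-Hochberg adjustment at 0.05. CPM values use TMM library sizes, and TPM deposited by the authors was used to compare genes within a library. The SE is the log2 fold change divided by the square root of F. Every pair of libraries of a group differed by more than sampling noise (lowest chi-square per gene 29.6). The tests were checked on simulated counts with 200 changed genes.

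The genes and lists were chosen with earlier results of these data known. Named beyond the 10 genes were, per list, up to 4 tested genes with the smallest p, detected receptors and processing genes, the 3 nearest profiles of 4 genes (mean of at least 1 CPM), and Hamp. Others named in the text, in the receptor, NF-kB, target and marker accounts, were chosen after their values were seen. The 5 mice per group are those of the series' design text, and replicate numbers follow accession order. Alternatives were other normalizations and filters, DESeq2 1.42.0, limma 3.58.1 (voom, and log2 TPM plus 0.1 or plus 1), covariates, each prefix alone and each library left out. A gene of the processing list and a near profile of Il1b are not reported here.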

Additional observations from a re-analysis of the deposited data

Results flagged for a closer look

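In groups of 5 libraries, 1 value stood apart from the rest. Among 74 groups of 5 examined, chance gives such a value in about 1 in 20. Il33 had 11.8 CPM in WT 2, where the nearest WT library had 21.89 CPM, a gap of 0.766 of the group's range.

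With all libraries, the KI effect was called different between title prefixes for Il1f6 and Il1f9. Leaving out KI 1, KI 2, KI 3, WT 1, WT 4 or WT 5 ended both calls, and leaving out KI 4 or KI 5 ended that of Il1f6. On the log2 scale EAS42 minus EAS37 was -3.16 for Il1f6 and -1.86 for Il1f9, by the interaction term in edgeR (adjusted p = 0.0486 for Il1f6 and 0.0255 for Il1f9). In both genes the KI libraries were lower and the WT libraries higher in EAS42 than in EAS37.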

How the results depend on the processing

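Over the alternatives of normalization, filter, tool and title prefix as a covariate, 8 or 9 of the 10 genes were called. Leaving out 1 library at a time gave 3821 to 5850 genes (5351 with all libraries), 8 to 9 of the 10 genes, 31 to 40 pathway genes (38 with all libraries) and 1 to 304 genes for the difference between prefixes (150 with all libraries). That difference had 444 genes with no filter, 304 without WT 2, 1 without KI 1 or WT 4, 2 without KI 2, 10 without WT 5, 12 without KI 3, 37 without WT 1 and 79 without KI 5. In EAS42 alone 2488 genes, 3 of the 10 (Il1f6, Il1f8 and Il1b) and 23 pathway genes were called. With the skeletal muscle level as a covariate these were 407, 1 and 16, with the adipocyte level 185, 1 and 8, with the keratinocyte level 166, 1 and 2, and with the neutrophil level 2, 0 and 0. Where 1 gene was left it was Il1f8. The keratinocyte and neutrophil covariates were chosen after seeing the data. The direction reversed for Il1rn in EAS42 alone (-0.29) and with the keratinocyte level (-0.55), and for Il1b with the neutrophil level (-0.11). Il1rn was called in EAS37 alone (0.65, adjusted p = 0.0369). The log2 fold change of Il33 lay between -1.02 and -0.29, and its call was lost without any 1 of KI 1 to KI 4 or of WT 1, WT 3, WT 4 and WT 5 (adjusted p 0.0784 to 0.0974). No paired analysis was possible because replicates were numbered by accession order, which pairs no samples. Il1b, with 44 counts in WT skin, and Il1f6, with 59, are limited by depth.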
